A study of Mus musculus with 2 samples.

Results

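The CCN genes encode matricellular proteins, which are secreted into the extracellular matrix and act there as signals. The family was examined as 5 genes, Ccn1 to Ccn5, taken by symbol from 22 deposited tables that hold 15181 genes in all. CCN proteins are built from a row of shared modules and bind integrins, proteoglycans and growth factors. In the heart, Ccn1 and Ccn2 are induced by injury and mechanical load, and both are textbook targets of YAP and TAZ (encoded by Yap1 and Wwtr1), coactivators that work with TEAD transcription factors. CCN5 lacks the last module of the other members and is known for opposing CCN2.

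RNA of single interstitial cells was sequenced, on a droplet platform, from mouse ventricles after surgical ligation of the left anterior descending artery, with 1 library for each of 2 genotypes. Both carried PostnMCM, a tamoxifen-inducible Cre made from the Postn locus, and the R26-eGFP reporter, and both received 0.4 g/kg tamoxifen citrate chow from the infarction to collection, 6 days later per the labels. The study's text gives another day and describes young adult mice. The first library (PostnMCM) had no floxed gene and controls for Cre itself. The second (Yapfl/fl;Wwtr1fl/+;PostnMCM) had both Yap copies and 1 Wwtr1 copy floxed, so that an intact Wwtr1 allele remained, and excision was limited to cells that express Postn. Viable cells were sorted without a gate on the reporter, and the number of animals in each library is not given in the sources used here.

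The deposited tables compare the genotypes within 18 clusters of all cells and within 4 subclusters (0, 3, 4 and 5) of the fibroblast cluster. Each gives the percent of cells with a count in each library and an average log2 fold change, which is log2 of the mean corrected count plus 1 in the second library minus the same in the control library. Negative values are lower in the second library. The added 1 draws values of sparse genes towards 0, so a fold given below is the least by which the means differed. With 1 library per genotype there was no test of genotype, and no value has an error. The tables state no cell numbers or depths, so no interval or detection limit is given. Shares come in steps, and the smallest share above 0 was 0.7%, 3.3%, 2.5% and 4.3% of control cells in subclusters 0, 3, 4 and 5, and 3.1%, 4.3%, 10% and 4.8% of cells labelled depleted. Subcluster 4 of the library labelled depleted is thus the coarsest. A lower mean because fewer cells transcribe a gene and one because each cell holds less RNA were looked at through the share of cells, and cannot be fully told apart.

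The targeted transcripts were checked first. Yap1 was not lower by the average in any subcluster, with log2 fold changes of 0.07, 0.31, 0.04 and 0.26 in subclusters 0, 3, 4 and 5. Wwtr1 was at 0.15, -0.30, -0.21 and -0.16. These counts come from the 3′ end of a transcript, and whether that end lies outside the floxed parts was not examined here. The second library is therefore called the library labelled depleted. By immunostaining, the study reports a marked loss of nuclear Yap and Wwtr1 protein in reporter-positive cells of this genotype, which RNA counts do not measure. Postn, whose locus drives Cre, was counted in 87% of control cells in subcluster 5 and in 25.5%, 40% and 10% of them in subclusters 0, 3 and 4. The study describes subcluster 0 by IGF binding proteins and an epicardial marker, 3 as proliferating and 4 by matrifibrocyte markers, and it likens 5 to secretory myofibroblasts. Col1a1, Col1a2, Col3a1 and Dcn were counted in 100% of cells of both libraries in all 4. The 7 epicardial or mesothelial markers lay at 37.5% to 97.2% of control cells in subclusters 0, 3 and 4. The fibroblast marker Tcf21 was counted in 2.1%, 6.7%, 35% and 43.5% of control cells in subclusters 0, 3, 4 and 5. In the same order Pdgfra was at 38.6%, 66.7%, 85% and 87%, Pdgfrb at 31.7%, 20%, 52.5% and 78.3%, and Lum at 35.9%, 26.7%, 40% and 100%. The 5 proliferation markers lay at 70% to 100% of control cells in subcluster 3 and at no more than 27.5% in the others. Markers for the description of subcluster 4 were not among the lists used.

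Ccn3 was lower in the library labelled depleted in all 4 subclusters, and no other member was. Ccn2 was lower in 3, Ccn4 in 2, Ccn1 in 1 and Ccn5 in 0 of the 4. Of the 18 cluster tables, the fibroblast table (cluster 5) alone listed a member, and that member was Ccn3. A gene enters a cluster table only if its log2 fold change is at least 0.25 in size and 25% of cells of either library hold a count. Ccn1, Ccn2, Ccn4 and Ccn5 therefore missed at least 1 of these limits in the fibroblasts as a whole, although each passed a size of 0.5 in at least 1 subcluster.

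**Figure D1:**
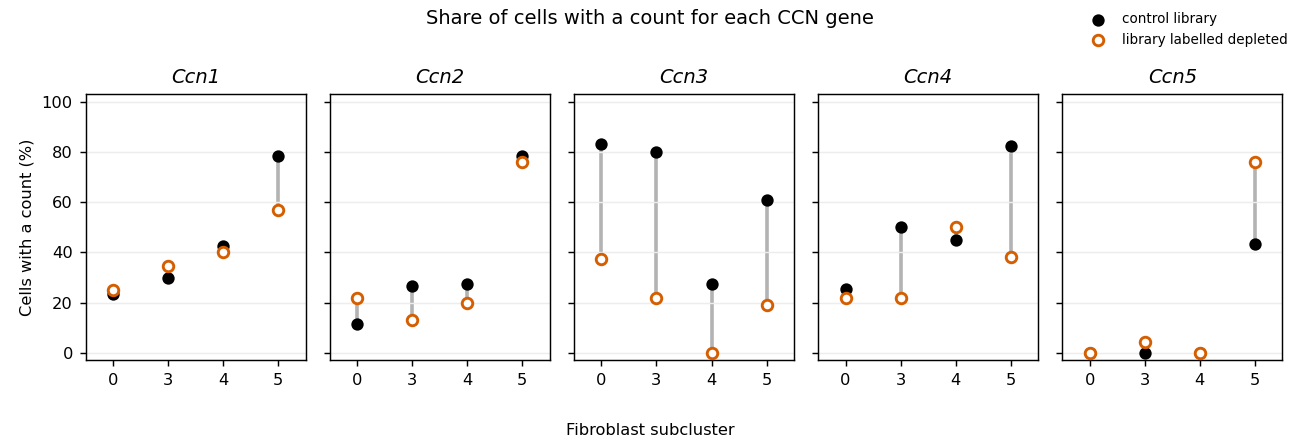
Percent of cells with a count (vertical axis) for each CCN gene in fibroblast subclusters 0, 3, 4 and 5 (horizontal axis), with filled points for the control library and open points for the library labelled depleted. The open Ccn3 points lie below the filled ones in all 4 subclusters, with differences of -58.3 to -27.5 percentage points, while Ccn5 is counted mainly in subcluster 5 and is higher there.

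Ccn3 (chromosome 15, 54609012 to 54620154, plus strand, GRCm39), once called Nov, encodes a secreted protein that binds integrins and Notch1. In subcluster 0 it was counted in 83.4% of control cells and 37.5% of cells labelled depleted, with a log2 fold change of -2.01. The subcluster 3 shares were 80% and 21.7%, with a value of -2.74. These are mean levels at least 4.04 times and 6.67 times lower in the library labelled depleted. Subcluster 5 gave 60.9% and 19%, a value of -1.73 and a mean at least 3.31 times lower. Both the share of cells and the average thus moved down by a wide margin in these 3 subclusters.

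In subcluster 4 Ccn3 was listed at 0% of cells labelled depleted, where the smallest share above 0 of any gene was 10%, against 27.5% of control cells. Where 1 library is at 0, the fold change gives the mean of the other, here 0.675 corrected counts per control cell and 2.45 per control cell with a count. The value of -0.74 in subcluster 4 is therefore as low as a gene of that control level can reach, so that its size cannot be ranked against those of the other subclusters. In subclusters 0, 3 and 5 the shares and the fold change together set a floor under the control mean of 4.56, 7.11 and 2.93 corrected counts per cell. By share of control cells the order was subcluster 0, 3, 5 and 4, and without replicates it is unknown which neighbours in this order differ.

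Among all genes with a mean share of at least 10% of cells over both libraries, Ccn3 was the 4th lowest of 10678 in subcluster 0 and the 2nd lowest of 10891 in subcluster 3. It ranked 31 of 10344 in subcluster 5, and in subcluster 4, where its value is limited by the 0, no rank is given. In the fibroblast cluster as a whole it was counted in 51% of control cells and 12.3% of cells labelled depleted, with a log2 fold change of -1.70. The second of these shares is lower than in 3 of the 4 subclusters. Cluster 5 also includes cells of subclusters 1 and 2, which were not analysed here, and its values come from a separate normalization. The share of each library held by each subcluster is not in the tables. The study describes subclusters 0, 2 and 4 as mainly of control origin and subcluster 1 as mainly from the second genotype. Of 7 epicardial or mesothelial markers 5 were listed for the same cluster, all lower, with Upk3b at -0.93, Upk1b at -0.91, Krt19 at -0.88, Dmkn at -0.74 and Krt8 at -0.36. Of 8 fibroblast markers 5 were listed, all higher, from Pdgfrb (0.31) to Pdgfra (1.12). The part of a different make-up of the cluster in its Ccn3 value was not tested. Such markers also differed within subclusters where Ccn3 was low. In subcluster 0 Pdgfra was at 1.35, with 38.6% of control cells and 71.9% of cells labelled depleted. There 0 of 7 epicardial or mesothelial markers differed by 0.5 (all genes, 1.41% lower and 2.06% higher). In subcluster 3 Pdgfra was at 0.76, Upk1b at -0.79, Krt19 at -0.63, Msln at 1.03 and Krt8 at 0.54. In subcluster 4 Pdgfrb was at 0.71. There 3 of 7 epicardial or mesothelial markers were higher by average (Msln 1.32, Krt19 1.25, Wt1 0.64) and 0 lower (all genes, 6.44% and 4.3%), unlike in the whole cluster. Their part in the Ccn3 values was not tested.

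Ccn2 (chromosome 10, 24471333 to 24474900, plus strand), also known as connective tissue growth factor, promotes matrix production by fibroblasts. It was counted in 11.7% of control cells and 21.9% of cells labelled depleted in subcluster 0, where its log2 fold change was 0.27. In subcluster 3 the shares were 26.7% and 13%, and the value was -0.79. Subcluster 4 had 27.5% and 20% of cells, with a value of -1.57. The share of cells thus moved the same way as the average in subclusters 0 (up) and 3 (down). In subcluster 4 the shares differed by -7.5 points, less than the smallest share above 0 there, 10% of cells labelled depleted.

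In subcluster 5 Ccn2 was lowest, at -1.86, while its shares of 78.3% of control cells and 76.2% of cells labelled depleted differed by 2.1 points. The mean was at least 3.64 times lower there, from a control mean of at least 5.41 corrected counts per cell. The difference in Ccn2 in subcluster 5 lay in the count per cell far more than in the share of cells with a count. Ccn3 in the same cells had a similar average, at -1.73, but a difference of -41.9 percentage points in its share. By average, Ccn2 was the 8th lowest of 11006 genes in subcluster 4 and ranked 25 of 10344 in subcluster 5 and 46 of 10891 in subcluster 3.

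Ccn1 (chromosome 3, 145352720 to 145355738, minus strand), once called Cyr61, encodes a ligand of integrins and is an immediate early gene. It was counted in 23.4% of control cells and 25% of cells labelled depleted in subcluster 0, and in 30% and 34.8% in subcluster 3, with log2 fold changes of 0.23 and 0.19. In subcluster 4 the value was 0.54 with shares of 42.5% and 40%, and it lay inside the middle 90% of genes, which reached 0.55. Subcluster 5 went the other way, with 78.3% of control cells, 57.1% of cells labelled depleted and a value of -0.87. By average Ccn1 was thus lower in subcluster 5 alone, where its control share was highest. Its shares in subcluster 4 differed by -2.5 points, less than the smallest share above 0 there, 10% of cells labelled depleted.

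Of the members, 1 of 5 was matched to a promoter in the RefSeq table (build GRCm38.p6), that of Ccn1. It is shown because Ccn1 is a known target of TEAD factors, and the capitals mark the letters CATTCC, the core of the TEAD motif. It runs over chr3:145649936-145650235 on the minus strand and is written in the direction of transcription, from 250 bases before the start to 50 after it.
Ccn1 promoter: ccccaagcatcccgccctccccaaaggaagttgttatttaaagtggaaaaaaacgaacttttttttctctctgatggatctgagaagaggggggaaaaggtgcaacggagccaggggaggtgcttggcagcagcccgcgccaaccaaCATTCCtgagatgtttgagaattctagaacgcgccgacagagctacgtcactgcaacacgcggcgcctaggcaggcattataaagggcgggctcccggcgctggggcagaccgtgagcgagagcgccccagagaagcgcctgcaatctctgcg

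On either strand of the Ccn1 promoter CATTCC occurs 1 time, beginning at position -103 where the start base is 0. Of 32851 promoters of the same length in the table, 14.7% hold it. The letters CGTCA, the core of the cyclic AMP response element, begin at -58 and are held by 20.8% of promoters on either strand, and TATAAA begins at -25 and is held by 8.32% on the transcribed direction. No match was found for the AP-1 motif TGANTCA (7.81% of promoters, either strand) or for the CArG box (1.63%), and the motifs found do not overlap. A match is a string of letters and not a measured site.

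Ccn4 (chromosome 15, 66763060 to 66795050, plus strand), once called Wisp1, is a Wnt-induced member that acts on fibroblast growth and matrix. In subcluster 0 its shares were 25.5% of control cells and 21.9% of cells labelled depleted, with a log2 fold change of 0.13. In subcluster 4 they were 45% and 50%, with a value of 0.20. It was lower in the other two, from 50% to 21.7% of cells in subcluster 3 (-0.59) and from 82.6% to 38.1% in subcluster 5 (-0.94). The difference in subcluster 5, -44.5 percentage points, was the lowest of any member there, next to -41.9 for Ccn3.

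Ccn5 (chromosome 2, 163662753 to 163675066, plus strand), once called Wisp2, was counted mainly in subcluster 5 among the 4 examined. It was listed at 0% of cells of both libraries in subclusters 0 and 4, and at 0% of control cells and 4.3% of cells labelled depleted in subcluster 3. In subcluster 5 it was counted in 43.5% of control cells and 76.2% of cells labelled depleted, with a log2 fold change of 1.18 and a mean at least 2.27 times higher. Ccn5 was thus the one member that was higher in subcluster 5, where the other 4 were all lower. In the same cells 2 of 8 fibroblast markers were higher by at least 0.5, Tcf21 at 1.13 and Lum at 0.99, and 0 were lower (all genes, 4.67% and 6.83%). The 7 epicardial or mesothelial markers spanned 4.3% to 73.9% of control cells and 0% to 14.3% of cells labelled depleted, with Msln and Krt8 at 0 in the latter. Of the 4 past the share filter used below, Wt1 alone was lower by at least 0.5, at -1.08, and the part of a different make-up of subcluster 5 in these values was not tested.

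**Figure D2:**
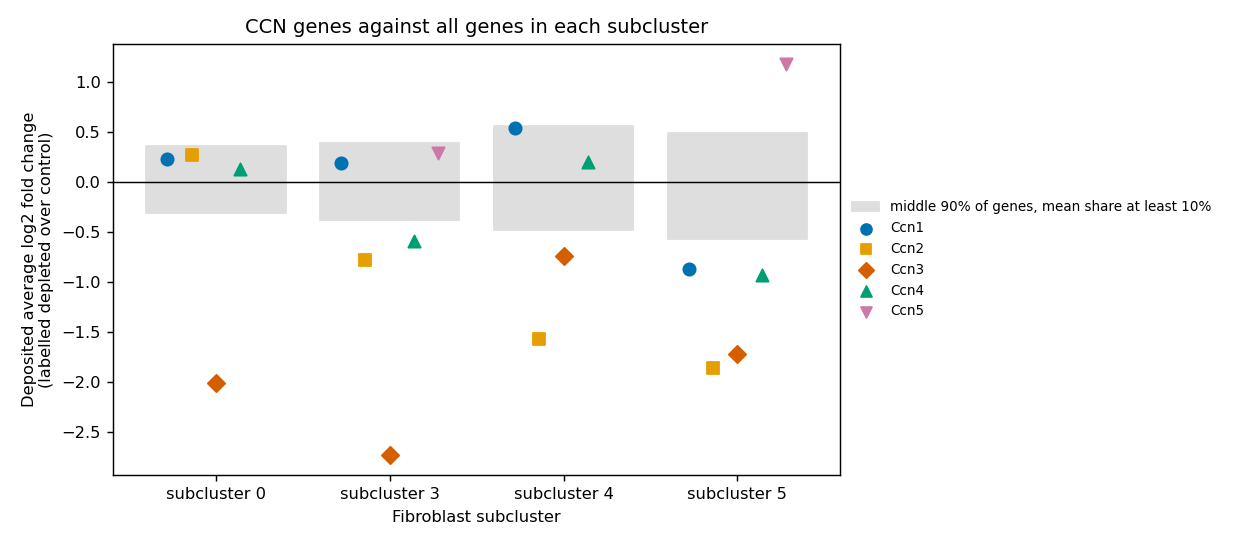
Deposited average log2 fold change (vertical axis, library labelled depleted over control) of each CCN gene with a count in fibroblast subclusters 0, 3, 4 and 5. Grey bands span the middle 90% of genes with a mean share of at least 10%, and Ccn3 lies below the band in subclusters 0, 3 and 5, at -2.01, -2.74 and -1.73, while its value in subcluster 4, -0.74, is limited by a share of 0.

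The 3 to 5 members counted in at least 10% of cells of each library were set against all genes with a mean share of at least 10%, a looser filter. In subcluster 0, 1 of 4 members (Ccn3) was lower by at least 0.5, against 1.41% of genes. In subcluster 3 it was 3 of 4 (Ccn2, Ccn3 and Ccn4), against 2.09%. In subcluster 4 it was 1 of 3 (Ccn2), against 4.3%. Of the 473 genes called lower there, 41 passed the mean-share filter through 1 library alone. Ccn3 passed the share filter there through the control library alone and is left out of that count. Subcluster 5 had 4 of 5 (all but Ccn5), against 6.83% of genes. Values of at least 0.5 above 0 were held by 0 of 4, 0 of 4, 1 of 3 (Ccn1) and 1 of 5 (Ccn5) members, against 2.06%, 2.54%, 6.44% and 4.67% of genes. The median of these members was 0.18, -0.69, 0.20 and -0.94 in subclusters 0, 3, 4 and 5, while that of all genes lay within 0.03 of 0. With Ccn3 kept, the median in subcluster 4 was -0.27, so its sign depends on that choice.

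Ccn3 was contrasted with each other member inside each subcluster, which gave 14 differences where both had a count in either library. In 12 of the 14 Ccn3 had the lower log2 fold change. Of these, 3 rest on Ccn3 in subcluster 4 or Ccn5 in subcluster 3, where 1 library was at 0, and over the 10 differences with counts in both libraries Ccn3 was lower in 9. Against Ccn1 the gap was -2.24, -2.93, -1.28 and -0.86 on the log2 scale in subclusters 0, 3, 4 and 5, and against Ccn4 it was -2.15, -2.14, -0.95 and -0.79. Against Ccn5 it was -3.02 in subcluster 3 and -2.91 in subcluster 5. Against Ccn2 it was lower in subclusters 0 and 3, with gaps of -2.28 and -1.95, but not in subcluster 5, with 0.14. In subcluster 4 the gap of 0.83 could not have been below 0, since Ccn3 at 0 in 1 library can reach no value under -0.74 and Ccn2 was at -1.57. Measured by shares the exceptions were others. Set against Ccn2, the difference in percentage points was lower for Ccn3 in all 4 subclusters, with gaps of -56.1 to -20. It was lower in 13 of the 14 differences, the exception being Ccn4 in subcluster 5, with a gap of 2.6 points. Both measures leave a sparse member little room to fall. In subcluster 0 Ccn1, Ccn2 and Ccn4 were counted in 23.4%, 11.7% and 25.5% of control cells, against 83.4% for Ccn3. The part of the control level in these gaps was not tested.

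In subcluster 0, Ccn3 stood at -2.01 while Ccn1, Ccn2 and Ccn4 lay between 0.13 and 0.27, inside the middle 90% of genes (-0.32 to 0.36). Ccn1, Ccn2 and Ccn4 also had lower control shares than Ccn3 there, and so less room to fall. In subcluster 5, Ccn1, Ccn2, Ccn3 and Ccn4 all lay below that range, which ran from -0.58 to 0.49. Whether the subclusters differ was not tested.

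**Figure D3:**
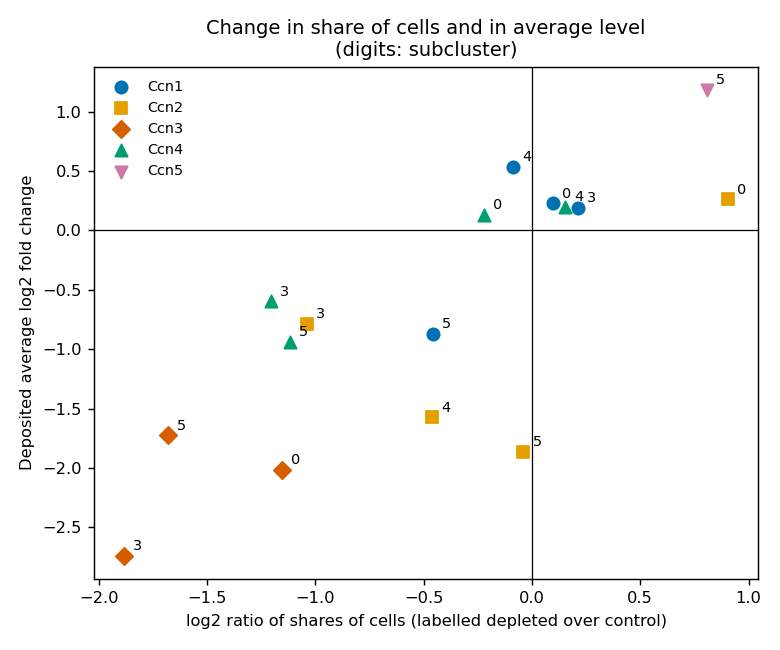
Deposited average log2 fold change (vertical axis) against the log2 ratio of shares of cells (horizontal axis, library labelled depleted over control) for the 16 member values with a count in both libraries, with the subcluster beside each point. Ccn2 in subcluster 5 sits at -0.04 on the horizontal axis and -1.86 on the vertical, while Ccn3 is low on both.

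Other target genes of YAP and TAZ were lower about as seldom as genes in general, and higher more often, by 1 to 3 genes per subcluster. Among the genes of a list of 22 with a mean share of at least 10%, 0 of 18, 0 of 16, 1 of 18 and 1 of 19 were lower by at least 0.5 in subclusters 0, 3, 4 and 5, against 1.41%, 2.09%, 4.3% and 6.83% of all genes. Higher were 2, 1, 3 and 2 of them, against 2.06%, 2.54%, 6.44% and 4.67%. Their medians were 0.11, 0.08, 0.12 and -0.09. The lowest was F3, the tissue factor gene that starts coagulation, at -0.15 in subcluster 0 and -1.96 in subcluster 5, where it passed the share filter through the control library alone. In subclusters 3 and 4 the lowest were Ptpn14 (-0.26) and Arhgef17 (-0.55). Highest were Igfbp3, at 0.61 in subcluster 0 and 0.81 in subcluster 5, Rbms3 at 0.61 in subcluster 3 and Tgfb2 at 1.34 in subcluster 4.

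Genes for CCN receptors and binding partners were lower mainly in subcluster 5. Of 25 listed, 9 of the 24 past the share filter were lower by at least 0.5 there and 0 higher, with a median of -0.40, against 6.83% of all genes lower and 4.67% higher. Of the 9, Bmp4 and Tnfrsf11b passed the filter through the control library alone, as did 82 of the 707 genes called lower there, which leaves 7. The 7 include the integrin subunit Itga5 (-1.54), the endocytic receptor Lrp1 (-1.18), Notch1 (-0.68) and Vegfa (-0.87). In subclusters 0, 3 and 4 there were 1 of 24, 1 of 25 and 3 of 24 (Itgam through the control library alone) lower, against 1.41%, 2.09% and 4.3% of all genes, and 1, 1 and 2 higher, against 2.06%, 2.54% and 6.44%. Tnfrsf11b, which encodes osteoprotegerin, a decoy receptor that CCN2 binds, was the lowest of the list in subclusters 0 (-0.73), 3 (-1.37) and 5 (-2.30). In subcluster 4 the list ran from Tgfb1 (-0.77) to Tgfb2 (1.34). The highest elsewhere were the matrix gene Fn1 (0.51) in subcluster 0, the leukocyte integrin Itgam (0.59) in subcluster 3 and Tgfb3 (0.49) in subcluster 5.

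Ccn1 belongs with the immediate early genes, and their values stand beside its own. In subcluster 5, where Ccn1 was at -0.87, 10 of 19 immediate early genes were lower by at least 0.5 and 0 higher (all genes, 6.83% and 4.67%), with a median of -0.58 and a range from Zfp36 (-1.45) to Egr1 (0.18). Of the 10, Fosb and Egr3 passed the share filter through the control library alone, which leaves 8. In subcluster 0, where Ccn1 was at 0.23, 6 of 18 were lower (Ier2 lowest at -0.94) and 1 higher (Atf3, 0.90), against 1.41% and 2.06% of all genes. Subclusters 3 and 4 had 2 of 19 (Fosb through the control library alone) and 0 of 17 lower, against 2.09% and 4.3%, and 2 and 1 higher, against 2.54% and 6.44%, from Egr1 (-0.63) to Dusp1 (0.83) and from Jund (-0.47) to Klf4 (0.77). These genes also respond to tissue dissociation, and the part of handling in the Ccn1 values was not tested.

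Myofibroblast and TGF-beta responsive genes did not move as one with the CCN genes. Of 16 genes, 0, 2, 4 and 4 were lower by at least 0.5 in subclusters 0, 3, 4 and 5, and 3, 2, 0 and 2 were higher. The shares of all genes were 1.41%, 2.09%, 4.3% and 6.83% lower and 2.06%, 2.54%, 6.44% and 4.67% higher, and they also stand beside the SRF counts given next. Acta2, smooth muscle actin, was the highest of them in subclusters 0 (2.22), 3 (0.94) and 5 (1.12), and was lower in subcluster 4 (-0.67). Cthrc1, a marker of matrix-producing fibroblasts, was lowest in subclusters 3 (-1.42) and 4 (-3.05), Timp1 in subcluster 0 (-0.47) and the collagen crosslinking enzyme Lox in subcluster 5 (-1.41). In subcluster 4 the highest was Skil, at 0.15. Of the SRF and MRTF targets, a cytoskeletal programme that also includes Acta2, 0 of 12, 1 of 13, 2 of 14 and 1 of 14 were lower and 2, 1, 0 and 3 higher. Tagln, a contractile gene, was the lowest of these in subclusters 3 (-0.68) and 4 (-1.78), Fhl1 in subcluster 0 (-0.24) and Vcl in subcluster 5 (-0.78). Acta2 was the highest in subclusters 0 and 3, Cnn2 in subcluster 4 (0.40) and the myosin light chain gene Myl9 in subcluster 5 (1.13).

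The pattern of Ccn3 over the 4 subclusters was compared with 9137 genes that had a mean share of at least 10% in each of them. By Euclidean distance in log2 fold change, the 5 nearest genes were Des (distance 1.95), Tnfrsf11b (2.05), Clec3b (2.05), Dlk1 (2.07) and Il11ra1 (2.16), so that no gene lay close. These distances take the Ccn3 value in subcluster 4 as it stands, although it is limited by the 0. Des, which encodes desmin, was at -1.57, -1.05, -0.83 and -0.87 in subclusters 0, 3, 4 and 5. Dlk1, a Notch-related protein of immature stromal cells, was at -1.42, -0.85, -0.58 and -1.15, and went from 48.3% of control cells to 3.1% of cells labelled depleted in subcluster 0. Those nearest to Ccn2 were Nupr1 (1.13), Prss23 (1.29) and H2-Ab1 (1.35). Ccn1 and Ccn4, whose values were smaller, had closer neighbours, at 0.20 for Gm12701, 0.24 for Lars2 and 0.25 for Actn4, and at 0.23 for Vegfa, 0.26 for Prelp and 0.31 for Sema3d. Of the 9137 genes, 806 (8.82%) were below 0 in all 4 subclusters and 12 (0.131%) were lower by at least 0.5 in all 4, Ccn3 among them. In at least 1 subcluster Ccn3, Chil3, Dlk1, Gpc3, Hbb-bs and Ocel1 passed the share filter through the control library alone, so the count rests in part on the filter. The other 6 were Colec12, Des, Gstp1, Hspb1, Il11ra1 and Timp2.

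**Figure D4:**
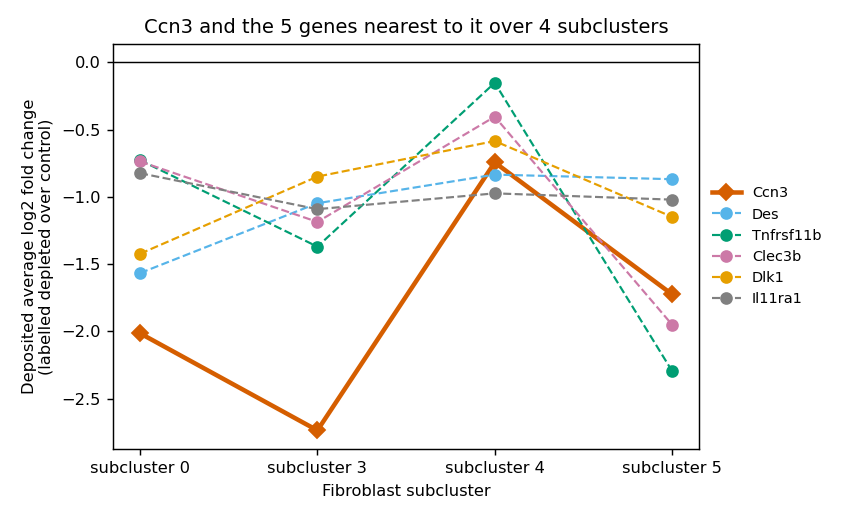
Deposited average log2 fold change (vertical axis, library labelled depleted over control) of Ccn3 (thick line) and of its 5 nearest genes (dashed lines) in fibroblast subclusters 0, 3, 4 and 5. Ccn3 is the lowest of the 6 in subclusters 0 and 3, at -2.01 and -2.74, and lies among them in subcluster 5, while its value in subcluster 4 is limited by a share of 0.

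RNA of other cells also differed between the libraries. Of the 12 genes above, Chil3 and Hbb-bs are a myeloid and an erythroid transcript. The 5 neutrophil markers lay at 15.2% to 91.7% of control cells and 0% to 53.1% of cells labelled depleted in subcluster 0, and 4 of the 4 past the share filter were lower by at least 0.5 (all genes, 1.41%), of which Retnlg and Csf3r passed it through the control library alone. In subclusters 3 and 4 it was 2 of 4 and 3 of 5 (all genes, 2.09% and 4.3%), of which Retnlg in subcluster 4 passed in that way, and Cxcr2 or Retnlg was at 0 in the library labelled depleted in each of the 3. In subcluster 5, where Ccn3 was at -1.73, 0 of 4 neutrophil markers were lower by that size and 0 higher (all genes, 6.83% and 4.67%). The share of S100a9 there was nonetheless 91.3% of control cells and 38.1% of cells labelled depleted. Of 7 macrophage markers, 2 were lower by at least 0.5 in subcluster 0 (Lyz2 at -1.83, Cd68 at -0.66) and 1 higher, and 2 were lower in subcluster 4 (Lyz2 at -1.49, C1qb at -0.97) and 0 higher. The all-gene shares were 1.41% and 2.06% in subcluster 0 and 4.3% and 6.44% in subcluster 4, and for higher values 2.54% and 4.67% in subclusters 3 and 5. By average they went the other way in the other two, with 5 higher and 0 lower in subcluster 3, although their shares there were 16.7% to 80% of control cells and 21.7% to 56.5% of cells labelled depleted (C1qb 80% and 39.1%), and 3 higher and 0 lower in subcluster 5, where they lay at 13% to 82.6% of control cells and 0% to 66.7% of cells labelled depleted, with Cd68 at 0 in the latter. T cell markers, of which 3 of 4 were in the tables, were counted in 6.7% to 10% of control cells and in 13% to 39.1% of cells labelled depleted in subcluster 3. In subcluster 5 they were counted in 0% to 13% and in 14.3% to 42.9%. Past the share filter, Cd3d in subcluster 5 (0.52) alone was higher by at least 0.5. The 4 haemoglobin genes lay at 4.3% to 45% of control cells and 0% to 4.3% of cells labelled depleted, and all 4 were at 0 in the latter in subclusters 4 and 5. Summed levels of these markers could not be computed from the tables. Their part in the CCN values was not tested.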

How the data were processed

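Per the labels, the submitters' processing notes name Cell Ranger 6.1.1, Seurat and GRCm39. The authors combined both libraries without depth normalization, removed low-quality clusters and cells, normalized with SCTransform, clustered, and reran the fibroblast cluster alone to obtain subclusters. No doublet caller is named. The deposited tables hold for each library the fraction of cells in which a gene has a corrected count (printed here as a percent), the authors' average log2 fold change, and p-values over cells, which were not used. The rows of each gene were read with pandas 2.3.3. From the deposited fractions and log2 values were computed ratios of shares, lower limits of the mean count (each counted cell holds at least 1), ranks, and Euclidean distances, over genes with a mean share of at least 10%. The steps were tested on simulated data. The formula was checked on the tables: for every gene at 0 in 1 library, the mean per counted cell in the other came out at 1 or above, within 2%. Gene positions come from GENCODE vM39 on GRCm39. The libraries are 1 per group, so no test was made. Named were the members, the 5 nearest genes to Ccn3 and the 3 nearest to each other member past the share filter in all subclusters, and the lowest and highest of each list, except a few list genes named after their values were seen (Itga5, Lrp1, Notch1, Vegfa), the 12 genes lower in all subclusters and the markers. The members, lists and sizes were chosen with earlier results of these data known. Alternatives were other sizes, centring, no share filter, and shares in place of averages. The tables give no depth per library.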

Additional observations from a re-analysis of the deposited data

Results flagged for a closer look

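Ccn1 and Ccn2 had values of at least 0.25 in size in opposite directions in different fibroblast subclusters. The Ccn1 average was 0.54 in subcluster 4 but -0.87 in subcluster 5. The first of these lay inside the middle 90% of genes and turned to -0.087 by the ratio of shares. That ratio rests on shares of 42.5% and 40%, closer than the smallest share above 0 of cells labelled depleted there, 10%. The Ccn2 average was 0.27 in subcluster 0 but -1.86 in subcluster 5. The value of 0.27 also lay inside the middle 90% of genes, which reached 0.36. The differences between subclusters were not tested, since each holds 1 library per genotype.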

How the results depend on the processing

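Centring on the median of all genes, or of genes with a mean share of at least 10%, kept the direction of all 18 member values with a count and moved none by over 1.5 times. The ratio of shares gave 16 values, of which 7 stayed within 1.5 times. Among the others Ccn1 in subcluster 4 (-0.087) and Ccn4 in subcluster 0 (0.13 by average, -0.22 by the ratio) changed sign. Ccn2 in subclusters 4 (-0.46) and 5 (-0.04) and Ccn1 in subcluster 5 (-0.46) were no longer lower by 0.5. Ccn2 in subcluster 0 became higher by that size, at 0.90. Ccn3 in subcluster 0 moved to -1.15. Ccn3 in subcluster 4 and Ccn5 in subcluster 3 have no ratio because 1 library is at 0. Of the member values, 10 were lower and 2 higher by at least 0.5, against 5 and 1 with a size of 1, and 6 lower by the ratio of shares. Ccn3 in subcluster 4, which passed the share filter through the control library alone, is 1 of the 10. It is left out of the counts of members past 0.5 in the Results, leaving 9. It is kept in the contrasts and among the genes lower in all subclusters, as stated there. Of all gene values in the 4 subclusters, 3.63% were lower and 3.94% higher by 0.5, 14.8% and 15.7% by 0.25, and 0.513% and 0.461% by 1. Ccn3 was lower in 12 of 14 contrasts, in 9 of 10 with counts in both libraries (chosen after seeing the data), in 10 of 10 by ratios and in 13 of 14 by percentage points. Over the 4 subclusters, with a size of 0.25, values lower and higher numbered 33 and 16 for CCN partners, 9 and 21 for YAP/TAZ targets, 19 and 13 for TGF-beta responsive genes, 32 and 12 for immediate early genes and 11 and 11 for SRF targets. With a size of 1 they numbered 4 and 1, 1 and 2, 6 and 3, 3 and 0, and 1 and 3. These moves follow from the sizes themselves. Leaving out a library was not possible. No paired analysis was possible because the tables compare 1 library with 1 other. The tables state no cell numbers, and shares come in steps as coarse as 10%.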
